A study of Mus musculus with 2 samples.

Results

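Polycomb repressive complex 2 (PRC2) was followed through the 10 genes Ezh1, Ezh2, Eed, Suz12, Rbbp4, Jarid2, Mtf2, Phf1, Phf19 and Epop, which were taken by name from the platform annotation, out of 18193 genes with a probe set of their own. RNA of mouse embryonic stem (ES) cells was compared between 1 array of Dnmt1 knockout (KO) cells and 1 array of their control cells, and the stated use of the series was as a KO control for other work on stem cell differentiation. Dnmt1 copies DNA methylation onto the new strand after replication. The KO is known only from the sample title, since the source name of both samples names the control, and the labels give no allele, clone, strain or culture conditions. With 1 array per group every value is a single measurement, no spread between cultures is known and no test was possible.

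PRC2 places methyl groups on lysine 27 of histone H3 (H3K27), a mark of silent developmental genes in ES cells. Its core holds a methyltransferase, Ezh2 or its paralog Ezh1, with Eed, which binds the finished mark and stimulates the enzyme, Suz12, the scaffold of the complex, and the histone-binding protein Rbbp4 or its paralog Rbbp7. Accessory subunits define separate forms of the complex. One form carries a Polycomb-like protein (Phf1, Mtf2 or Phf19), which binds CpG-rich unmethylated DNA and reads histone H3 through a Tudor domain, and can also carry Epop, a link to the Elongin B and C proteins. The other form carries Jarid2, a DNA- and nucleosome-binding protein without demethylase activity, together with Aebp2.

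The promoters of the members with the most different ratios are shown first, since the enzyme removed here acts on CpG sites and the Polycomb-like proteins bind them. Each is the stretch of 250 bases before the gene's start on its own strand, from RefSeq on build GRCm38.p6, in lower case with each CpG in capitals. Phf1 had the highest ratio of the 10, Mtf2 and Phf19 are its paralogs, and Suz12 and Eed had the highest and lowest ratios among the core subunits. Ezhip is no member but encodes an inhibitor of PRC2 described below.
Phf1, chr17:26932877-26933126, plus strand: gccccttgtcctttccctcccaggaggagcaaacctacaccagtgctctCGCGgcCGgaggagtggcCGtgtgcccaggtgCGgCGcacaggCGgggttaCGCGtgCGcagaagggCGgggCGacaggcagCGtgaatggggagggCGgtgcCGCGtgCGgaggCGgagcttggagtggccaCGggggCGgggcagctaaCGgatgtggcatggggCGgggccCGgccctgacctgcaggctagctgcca
Mtf2, chr5:108065424-108065673, plus strand: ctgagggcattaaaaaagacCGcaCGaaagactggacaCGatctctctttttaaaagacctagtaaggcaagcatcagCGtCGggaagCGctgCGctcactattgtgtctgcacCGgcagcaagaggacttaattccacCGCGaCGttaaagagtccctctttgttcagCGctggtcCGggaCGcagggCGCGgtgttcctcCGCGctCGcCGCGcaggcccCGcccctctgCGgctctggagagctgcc
Phf19, chr2:34913977-34914226, minus strand: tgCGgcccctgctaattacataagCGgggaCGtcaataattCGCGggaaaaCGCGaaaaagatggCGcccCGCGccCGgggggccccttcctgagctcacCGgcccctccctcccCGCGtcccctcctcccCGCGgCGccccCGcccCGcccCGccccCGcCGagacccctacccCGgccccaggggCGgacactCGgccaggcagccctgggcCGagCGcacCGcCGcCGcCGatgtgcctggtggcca
Suz12, chr11:79992856-79993105, plus strand: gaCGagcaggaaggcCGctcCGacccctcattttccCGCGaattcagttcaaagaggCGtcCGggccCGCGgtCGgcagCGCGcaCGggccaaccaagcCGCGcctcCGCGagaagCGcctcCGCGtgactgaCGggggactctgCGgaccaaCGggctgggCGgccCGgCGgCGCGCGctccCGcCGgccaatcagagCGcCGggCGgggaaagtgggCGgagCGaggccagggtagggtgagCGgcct
Eed, chr7:89980977-89981226, minus strand: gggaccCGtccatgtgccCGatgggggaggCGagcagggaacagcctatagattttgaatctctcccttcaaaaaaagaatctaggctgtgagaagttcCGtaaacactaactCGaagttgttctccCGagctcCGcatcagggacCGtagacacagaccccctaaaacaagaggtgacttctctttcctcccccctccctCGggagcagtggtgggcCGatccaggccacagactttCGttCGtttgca
Ezhip, chrX:6083421-6083670, minus strand: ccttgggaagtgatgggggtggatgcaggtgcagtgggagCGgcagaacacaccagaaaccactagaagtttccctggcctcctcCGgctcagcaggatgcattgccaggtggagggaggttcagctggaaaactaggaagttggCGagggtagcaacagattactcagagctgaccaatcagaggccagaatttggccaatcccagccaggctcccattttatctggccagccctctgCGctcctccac

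In these windows Phf1 held 23 CpG sites, Mtf2 also 23, Phf19 31, Suz12 37 and Eed 12, against a median of 6 over the 32851 promoters of the table, whose 10th and 90th percentiles were 1 and 25. Ezhip held 4. Of the 10 members 9 had a promoter in the table, of which Mtf2 and Jarid2 had 2 each. The other Mtf2 promoter held 2 CpG sites, and the remaining member promoters, those of Ezh1, Ezh2, Rbbp4 and Jarid2, held between 14 and 30. Whether the number of CpG sites goes with the ratios given below was not tested. Methylation was not measured here. The sequence TTTCCCGC, an E2F element, was found on either strand in the promoters of Suz12 and Phf19, and in 0.895% of all promoters. TTTGGCGC, another E2F element, was in no member window and in 0.417% of all. CACGTG, an E-box, was in that of Rbbp4 and in 6.02% of all.

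The values are signal intensities of probe sets, groups of short probes for one transcript. A signal under the median of its array, which was 74.2 on the KO array and 60.9 on the control array, was raised to that median, called the floor here. Of the 30 probe sets of the 10 genes, 25 were above the floor on both arrays and 5 below it on both. All 10 genes had at least 1 probe set in the first class. The brightest probe set stands for a gene, and signals of different probe sets are not set against each other as levels. By their suffixes, 19 of the 30 are plain probe sets, 4 cover transcript variants of 1 gene, 6 match several transcripts and 1 holds probes that may cross-hybridise. Because the median gene was 1.34-fold brighter on the KO array, a shift of 0.43 on the log2 scale, log2 ratios of KO over control are given relative to that shift unless called as deposited. Pooled over 4704 genes, the SD of the log2 ratio between probe sets of 1 gene was 0.24, which serves as a technical scale and covers no difference between cultures. In whole-culture RNA, fewer cells expressing a gene and less RNA per cell cannot be told apart.

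The label of the KO array was borne out by Dnmt1. Its brightest probe set had a signal of 262.1 on the KO array and 1949.1 on the control array, a 7.44-fold difference as deposited. Its other probe sets read 56.8 and 20.0 on the KO array, below the floor, against 874.7 and 348.3 on the control array. The labels do not say which exons were removed, so what each probe set covers of the deletion is not known. All 10 listed ES cell markers were above the floor on both arrays. Their signals as deposited summed to 42509 on the KO array and 33571 on the control array. Relative to the shift their median log2 ratio was -0.11, with 3 above it and 7 below. Nanog, a pluripotency factor, was the only marker at least 2-fold different, with a log2 ratio of 1.30. Utf1 was the lowest at -0.62, but its other probe set above the floor had -0.04. Of 15 listed fibroblast markers, which feeder cells would carry, 10 were above the floor on at least 1 array, none was at 0 on either array, and Col3a1, Postn, Lum, Dcn and Pdgfrb were below the floor on both. As deposited, the fibroblast markers summed to 7571 on the KO array and 6061 on the control array. Relative to the shift their median log2 ratio was -0.13, with 4 above it and 6 below. Among them the actin-binding gene Tagln was at least 2-fold lower, at 345.9 on the KO array and 707.9 on the control array (-1.46). Col1a1 and Mmp2 had -0.66 and -0.57, with -0.19 and -0.28 on their other probe sets, while the intermediate filament gene Vim had 0.54. Their part in the PRC2 values was not tested.

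**Figure D1:**
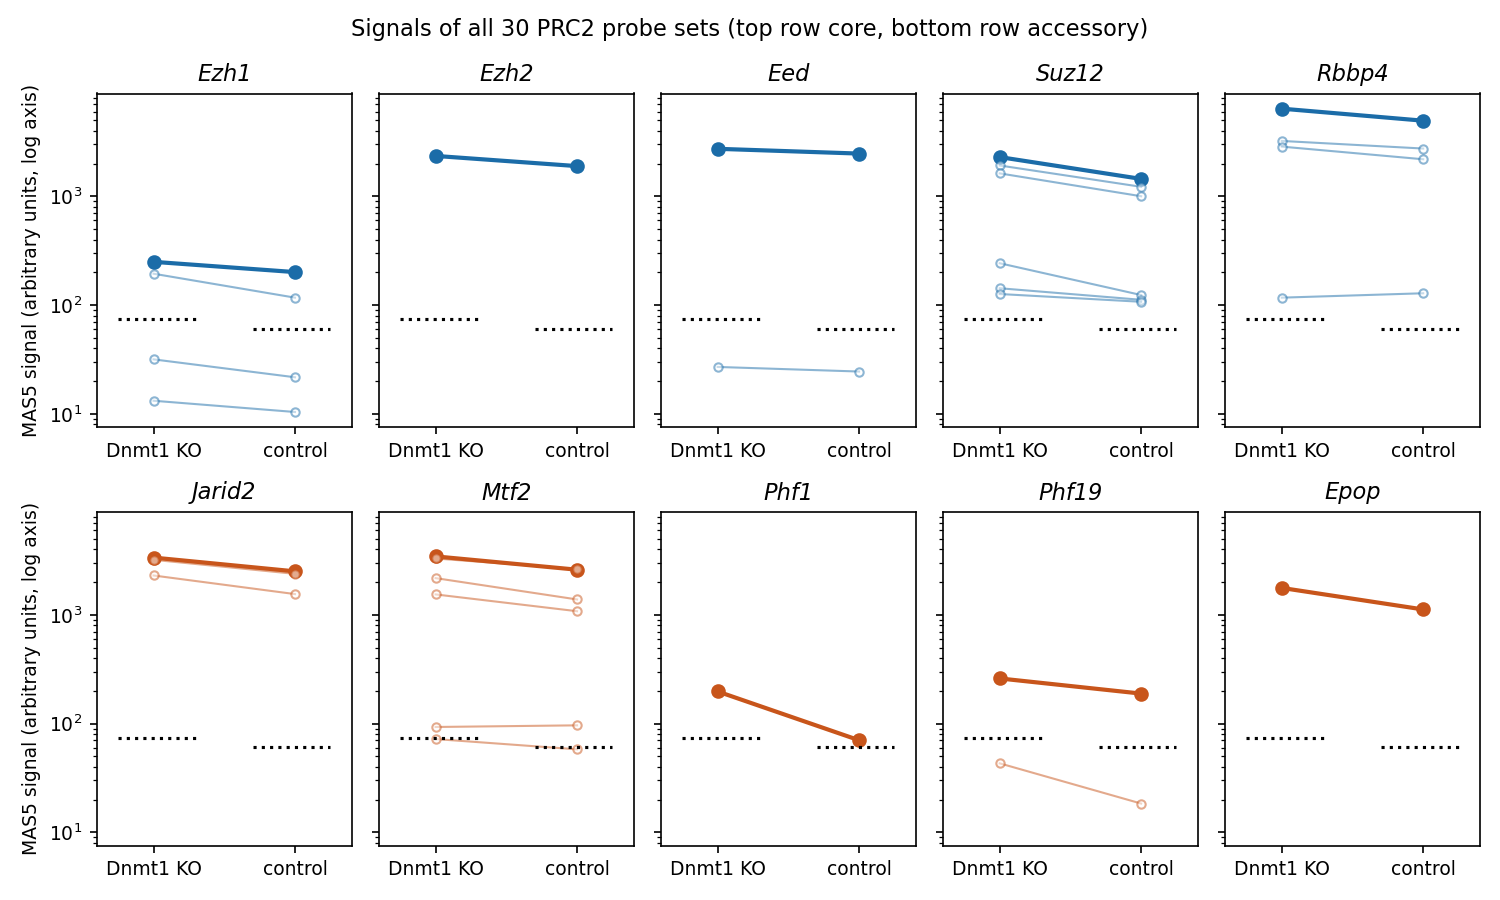
MAS5 signal (log axis) of each of the 30 probe sets on the Dnmt1 KO array (left) and the control array (right), 1 panel per gene, with core subunits above and accessory subunits below. Thick lines join the brightest probe set of a gene, thin lines the others, and dotted lines mark the floors of 74.2 (KO) and 60.9 (control). The Phf1 line is the steepest among the brightest probe sets, and its control signal of 70.3 lies just above the floor.

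Apart from Phf1, the PRC2 genes had log2 ratios between -0.28 and 0.24 in Dnmt1 KO cells over control. Phf1 was 2.09-fold higher relative to the shift and 2.81-fold higher as deposited, and it was the one member of 10 at least 2-fold higher. No member was at least 2-fold lower. Over all 12226 genes above the floor on at least 1 array, 133 (1.09%) were higher by at least 2-fold and 65 (0.532%) were lower by as much. The median log2 ratio of the members was -0.012, against -0.0049 for all genes measured. Of the 10 members 8 lay within 0.24 of the shift, as did 58.3% of all genes, but Suz12 (0.24) and Epop (0.23) were near that limit. The 25th and 75th percentiles of all genes were -0.20 and 0.19, and Eed, Suz12, Epop and Phf1 lay outside them. As deposited, every member was brighter on the KO array, with log2 ratios between 0.15 and 1.49, and Phf1 was again the one member at least 2-fold higher, against 4.92% of all genes.

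**Figure D2:**
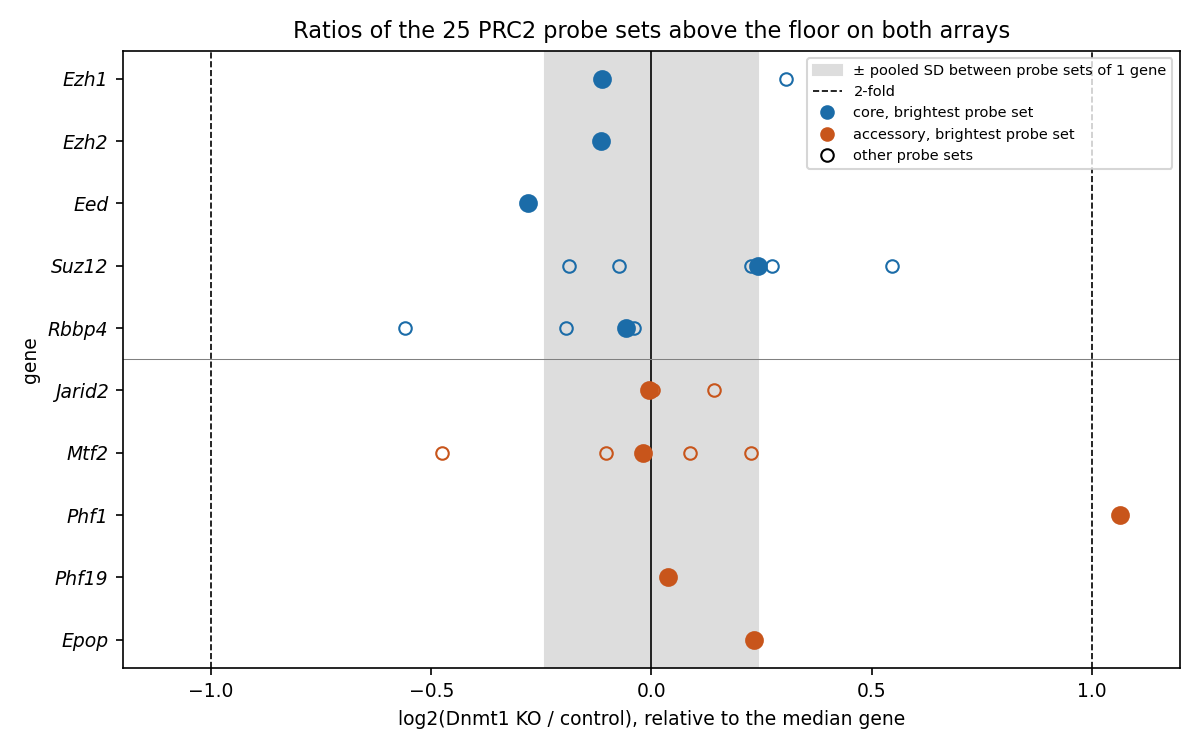
Log2 ratio of Dnmt1 KO over control, relative to the median gene, for the 25 PRC2 probe sets that passed the floor on the KO and control arrays. Filled circles are the brightest probe set of each gene, open circles the others, the grey band is ± 0.24 (the pooled SD between probe sets of 1 gene) and dashed lines mark 2-fold. Phf1 at 1.06 is the one point past 2-fold, and the other points lie between -0.56 and 0.55.

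Among the catalytic subunits, Ezh2, the main H3K27 methyltransferase of dividing cells, had a single probe set, with a signal of 2354.1 on the KO array and 1897.9 on the control array. Its log2 ratio was -0.11. Ezh1, the paralog that is more prominent in resting cells, had a signal of 250.0 on the KO array and 201.2 on the control array, also with a log2 ratio of -0.11. On their brightest probe sets the log2 ratios of the paralogs differed by -0.0025, Ezh2 minus Ezh1. A second Ezh1 probe set, at 194.4 on the KO array and 117.1 on the control array, had a log2 ratio of 0.31, so the direction for Ezh1 was not shared by its probe sets. The other Ezh1 probe sets were below the floor on both arrays, at 31.7 and 13.2 on the KO array and 21.7 and 10.4 on the control array.

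Suz12 and Eed lay at opposite ends of the core. Suz12 had a signal of 2297.1 on the KO array and 1447.1 on the control array and a log2 ratio of 0.24, at the 79.7 percentile of all genes measured. All 6 Suz12 probe sets were above the floor. The other bright Suz12 probe sets read 1922.8 and 1627.1 on the KO array against 1224.4 and 1002.8 on the control array, with log2 ratios of 0.23 and 0.27, so the bright probe sets lay close together. The dim Suz12 probe sets, at 242.7, 142.9 and 126.5 on the KO array against 123.8, 111.9 and 107.3 on the control array, had log2 ratios of 0.55, -0.07 and -0.19, a wider spread. The mean over the 6 was 0.17 ± 0.26 (SD between probe sets).

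Eed had a signal of 2737.3 on the KO array and 2474.4 on the control array, the lowest log2 ratio of the 10 members at -0.28, and its other probe set was below the floor at 27.0 on the KO array and 24.5 on the control array. Of all genes measured, 18.5% had a ratio as low as that of Eed or lower. The difference of Suz12 minus Eed was 0.52 on the log2 scale. In the highest of 4 equal bins of genes by mean signal, the SD between probe sets of a gene was 0.21. That SD describes single ratios and not a difference between genes, so it is only a rough scale here, and Eed rests on 1 probe set.

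Rbbp4, a histone chaperone shared with other chromatin complexes, had a signal of 6404.5 on the KO array and 4964.6 on the control array and a log2 ratio of -0.06. Its 4 probe sets were all below the shift, with a mean of -0.21 ± 0.24 (SD between probe sets). The next probe sets read 3233.8 and 2867.3 on the KO array against 2752.7 and 2194.0 on the control array, with log2 ratios of -0.19 and -0.04. The lowest ratio, -0.56, came from the dimmest probe set, at 117.1 on the KO array and 128.5 on the control array. The brightest Rbbp4 probe set is the one with probes that may cross-hybridise.

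Of the accessory subunits, Jarid2 was almost at the shift on its bright probe sets. They read 3362.1 and 3208.5 on the KO array against 2512.5 and 2383.4 on the control array, with log2 ratios of -0.0051 and 0.0036, and the remaining one read 2301.8 on the KO array against 1552.6 on the control array (0.14). Epop had 1 probe set, at 1768.8 on the KO array and 1121.3 on the control array, and a log2 ratio of 0.23. That is within the pooled technical scale of 0.24 but above the SD of 0.21 in its bin, the highest by mean signal. The Epop probe set is among those that match several transcripts, as are the brightest probe sets of Suz12 and Jarid2.

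The Polycomb-like paralogs did not share a ratio. Phf1 had a signal of 197.4 on the KO array and 70.3 on the control array, a log2 ratio of 1.06, which placed it at rank 113 from the top of 12226 genes. Mtf2, the Polycomb-like protein best known from ES cells, had a signal of 3448.5 on the KO array and 2602.3 on the control array and a log2 ratio of -0.02. Phf19 had a signal of 260.2 on the KO array and 188.8 on the control array and a log2 ratio of 0.04, with its other probe set below the floor at 43.1 on the KO array and 18.4 on the control array. The log2 ratio of Phf1 exceeded that of Mtf2 by 1.08 and that of Phf19 by 1.03.

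Phf1 is the least well measured of the paralogs. Its gene has 1 probe set, so no second probe set can be set beside it. Both its signals were above the floor, but the control signal was only 1.15 times the floor, so the ratio rests on a dim signal. In its bin of genes, the lowest of the 4 by mean signal, 0.785% of 3057 genes were at least 2-fold higher. Most genes of this bin had mean signals so near the floors that a ratio of 2-fold higher could not be reached. The bin also includes genes at the floor on 1 array, whose ratios are bounds. The share therefore understates how often genes about as dim as Phf1 pass 2-fold. It cannot show how unusual the Phf1 ratio is at its signal. The SD between probe sets of a gene was 0.29 in this bin, but it rests on only 170 of the 3057 genes. The Phf1 ratio of 2.09 is also just past the threshold of 2. The 5 measured genes on each side of Phf1 on chromosome 17 had log2 ratios between -0.47 and 0.36 with a median of -0.03, and none was 2-fold different.

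Mtf2 had 5 probe sets above the floor, which averaged -0.06 ± 0.26 (SD between probe sets). Of the bright ones, those at 3300.3, 2177.0 and 1541.6 on the KO array read 2637.8, 1386.1 and 1080.5 on the control array, and their log2 ratios were -0.10, 0.23 and 0.09. The lowest ratio of Mtf2, -0.48, again came from a dim probe set, at 93.1 on the KO array and 96.4 on the control array. The remaining Mtf2 probe set was below the floor, at 72.1 on the KO array and 58.0 on the control array.

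Bright probe sets of the complex spread less than dim ones. The 16 probe sets with signals over 1000 on both arrays, which cover 7 of the 10 genes, had log2 ratios between -0.28 and 0.27, with an SD of 0.17. The 9 dimmer ones lay between -0.56 and 1.06, with an SD of 0.51, or 0.37 without Phf1. Ezh1, Phf1 and Phf19 were the members with no bright probe set. Counted by probe set, 1 of the 25 was higher by at least 2-fold and 0 were lower by as much, against 1.03% and 0.61% of the 24084 probe sets measured on the array, and 12 lay above the shift and 13 below it.

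**Figure D3:**
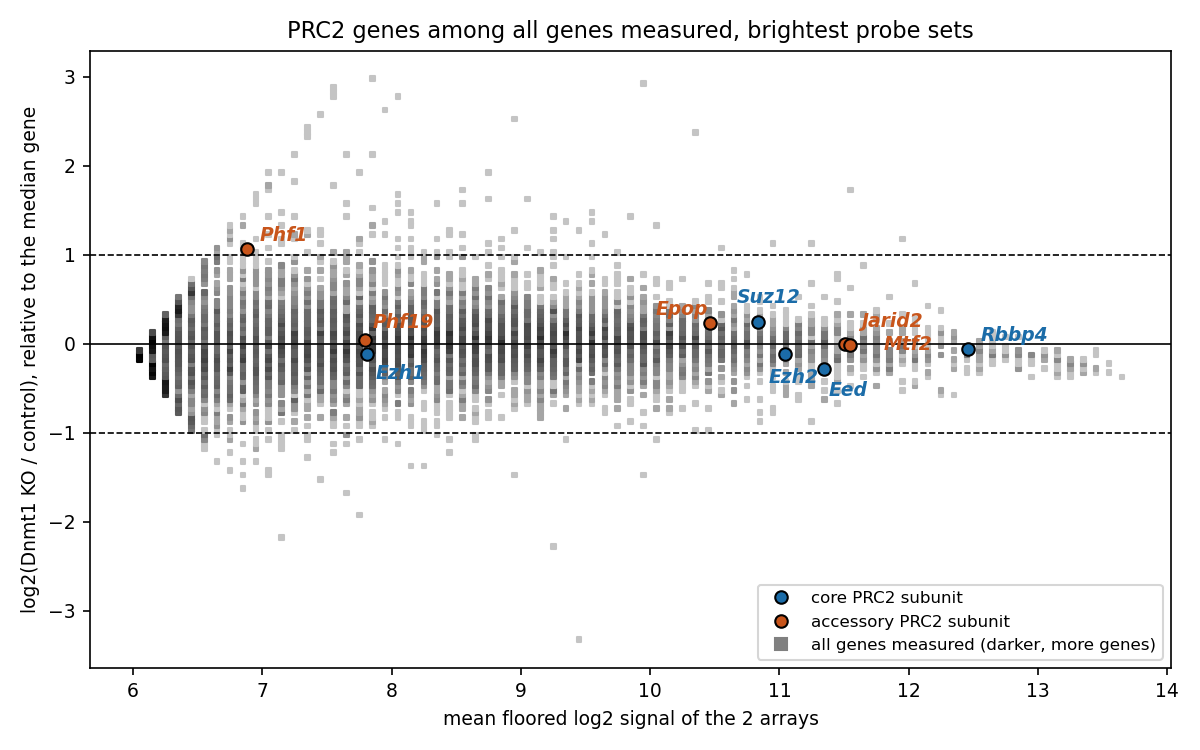
Log2 ratio of Dnmt1 KO over control, relative to the median gene, against the mean log2 signal of the 2 arrays for 12226 genes (grey, darker where more genes fall together), with the 10 PRC2 genes in colour. Dashed lines mark 2-fold, and the lowest grey point is Dnmt1. The 7 bright members lie within 0.28 of the shift, while Phf1 at 1.06 sits at low signal.

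The core subunits had a median log2 ratio of -0.11 and the accessory subunits one of 0.04. Of the 5 core genes 1 lay above the shift and 4 below it, and of the 5 accessory genes 3 lay above and 2 below. These counts depend on the setting, since several members lay near the shift. With quantile normalization Rbbp4, Jarid2 and Mtf2 had log2 ratios of 0.03, 0.02 and 0.02. With the mean over probe sets Ezh1 had 0.11. The core ranged from -0.28 to 0.24 and the accessory class from -0.02 to 1.06, so the classes overlapped. The difference of medians, core minus accessory, was -0.15, and it was -0.13 without Phf1. It was -0.34 with plain probe sets only, where Rbbp4 is read from its dimmest probe set (-0.56), Jarid2 from its plain one (0.14) and Ezh1 has no ratio, and -0.053 with a floor at the 75th percentile, where Phf1 and Phf19 have no ratio and that of Ezh1 is a bound. By probe set, 5 of 14 core and 7 of 11 accessory probe sets lay above the shift, with medians of -0.07 for the core and 0.04 for the accessory class. The subunits are not replicates of each other, so the difference between the classes was not tested.

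Other genes of the pathway were read from lists, beside the same background of 1.09% higher and 0.532% lower genes. Of 10 further genes listed with PRC2, not all of them its subunits, 9 were measured. Of these, 1 was at least 2-fold higher and 0 were lower, with a median of 0.16. The gene past 2-fold was Ezhip, a germline inhibitor that binds PRC2 and inhibits its methyltransferase activity. Ezhip, on the X chromosome, had a signal of 239.9 on the KO array and 38.1 on the control array, below the floor there, so it was at least 2.93-fold higher relative to the shift. Like Phf1, it has 1 probe set. Kdm2b, which brings a variant of PRC1 to CpG islands, had 2000.1 on the KO array and 1228.8 on the control array (0.28). Aebp2, the partner of Jarid2 in the complex, had 623.7 on the KO array and 386.1 on the control array (0.27), with 4 probe sets averaging 0.23 ± 0.14 (SD). Usp7, a deubiquitinase, had 0.20 on its brightest probe set, but its 7 probe sets averaged -0.13 ± 0.40 (SD).

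Enzymes that remove or oppose the H3K27 mark showed no 2-fold difference. All 5 demethylases and acetyltransferases were measured, with a median of -0.23 and 4 of 5 below the shift. Kdm6b, an H3K27 demethylase, had 280.0 on the KO array and 303.0 on the control array (-0.54). The acetyltransferase Ep300 had -0.25, and the demethylase Kdm6a and its Y-linked homolog Uty had -0.23 and 0.14. On their other probe sets above the floor Kdm6a and Uty had -0.05 and -0.13. Of 9 listed H3K36 and H3K4 methyltransferases, whose marks limit PRC2, 8 were measured and 0 were 2-fold different, with a median of 0.10. Nsd3 was the lowest at -0.67 (182.4 on the KO array, 216.7 on the control array), with 5 probe sets averaging -0.55 ± 0.09 (SD). It is the gene of this list on chromosome 8, whose 601 genes above the floor had a median of -0.37 (0.06 as deposited), and none of the 10 PRC2 members is on that chromosome. Kmt2c, Kmt2b and Kmt2a had 0.43, 0.22 and 0.20, but the 4 Kmt2c probe sets averaged 0.19 ± 0.19 (SD).

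Of 15 listed subunits of PRC1, the complex that ubiquitinates histone H2A and, in its canonical form, reads the H3K27 mark, 12 were measured. Their median was -0.05 and 0 were 2-fold different relative to the shift. As deposited, 2 were at least 2-fold higher. Bmi1 had 156.9 on the KO array and 62.1 on the control array (0.91), and Phc3 had 147.8 on the KO array and 46.8 on the control array, below the floor there (at least 0.85). Like Phf1, both had control signals near or below the floor. Phc2 and Pcgf2 each had 0.54, with 0.59 and 0.22 on their other probe sets.

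Developmental regulators that carry the H3K27 mark in ES cells were mostly too dim to measure. Of 39 with a probe set of their own, 20 were below the floor on both arrays, among them Pax3, Olig2 and Neurog1, and 19 were measured. Of these, 1 was at least 2-fold higher and 0 lower, and the median was -0.07, with 9 above the shift and 10 below. Cdkn2b, an inhibitor of cyclin-dependent kinases, had 341.4 on the KO array and 125.6 on the control array (1.02). The endoderm factor Gata4 had 70.6 on the KO array, below the floor, and 80.3 on the control array, a log2 ratio of -0.54 or below. The eye and neural factor Pax6 had -0.52 and the T-box factor Tbx3 0.46.

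**Figure D4:**
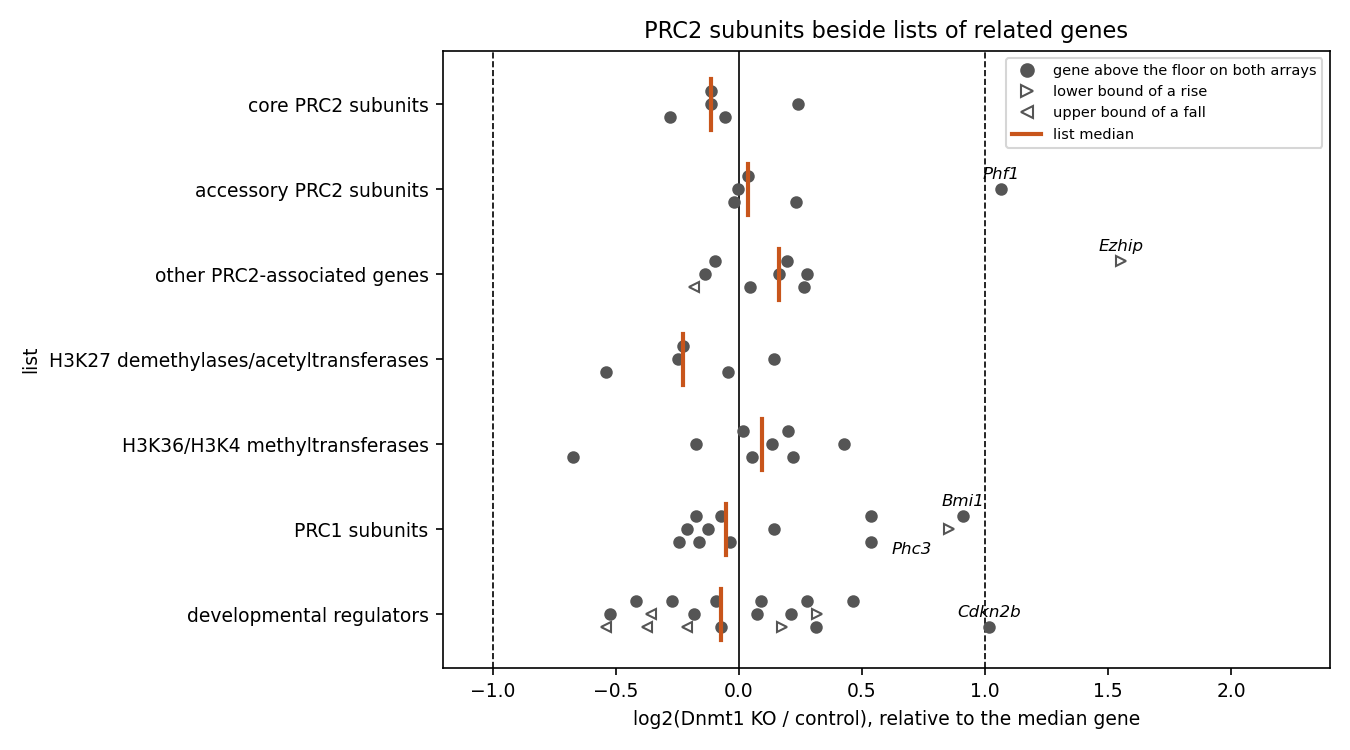
Log2 ratio of Dnmt1 KO over control, relative to the median gene, for the measured genes of the PRC2 classes and of the lists of related genes (1 row per list, cell type markers not drawn). Circles are genes above the floor on both arrays, open triangles are bounds for genes at the floor on 1 array, orange bars are list medians with bounds taken at their value, and dashed lines mark 2-fold. Phf1 (1.06), Ezhip (at least 1.55) and Cdkn2b (1.02) are the plotted genes past 2-fold, and every plotted list median lies between -0.23 and 0.16.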

How the data were processed

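Total RNA was labelled with biotin and hybridised to 1 Affymetrix array per group, and the sample titles gave the groups. The values deposited by the authors are linear signal intensities made with MAS5, per the submitters' processing notes, which combines perfect-match and mismatch probes into 1 signal. Scaling and detection calls are not stated in these notes, and the number of arrays limits precision.

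Of 45101 probe sets, 64 controls were left out. The platform annotation gave 1 symbol for 34958, several for 932, which were not used, and none for 9211. Of 34945 single-gene probe sets, 34741 were found in RefSeq (GRCm38.p6) and took its symbol. The floor was the percentile 50 of each array. The shift is the median over 10995 genes that passed it on both arrays, and 5967 genes on neither have no ratio. Where 1 array was at the floor, the ratio is a bound. The procedure was checked on simulated data, with changes larger than that of Phf1 in genes with brighter control signals. That check therefore does not bear on the Phf1 ratio.

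Named are all members, Dnmt1 and up to 4 genes per list with the largest ratios. Dim markers and regulators named beyond that, the split at a signal of 1000 and the neighbouring genes were chosen after values were seen. Members and lists were chosen with earlier results of these data known. Alternatives covered scaling, floor, probe set, fold threshold and the class of Ezh1. Python 3.11.15, pandas 2.3.3, numpy 2.4.6 and statsmodels 0.14.6 were used.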

Additional observations from a re-analysis of the deposited data

How the results depend on the processing

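With 1 array per group, no setting gives a test. Phf1 stayed the highest member and at least 2-fold higher under every scaling. The same held with the floor at the 25th percentile and with no floor (pseudocount 1). Its log2 ratios were between 1.06 and 1.15, apart from 1.49 as deposited. Phf1 has 1 probe set, so the choice of probe set could not alter its signals. Each of these settings reads the same 1 signal per array. At the 75th percentile floor Phf1 and Phf19 had no ratio and Ezh1 only a bound, and 0 members and 0 member probe sets were 2-fold higher, and at a 3-fold threshold the counts were also 0 and 0. As deposited, all 10 members moved up by the shift. With plain probe sets only, Rbbp4 had -0.56, from its dim probe set. In the remaining settings, each member with a ratio moved by less than the technical SD of 0.24 from its value in the report. Even so, Ezh1, Rbbp4, Jarid2 and Mtf2 changed sign in some of them, so the counts above and below the shift are not stable. Ezh1 had no ratio with plain probe sets only. The difference of core minus accessory medians stayed negative and moved by less than that SD in each setting, between -0.34 and -0.053. Genes at least 2-fold higher and lower over the array numbered 133 and 65 in the setting used (67.2% higher), 602 and 12 as deposited (98.0%), 361 and 388 with the floor at the 25th percentile, 48 and 12 at the 75th, 846 and 1049 with no floor, 579 and 519 at 1.5-fold and 32 and 6 at 3-fold. Floors and thresholds change these counts by construction, and the cause of the change with scaling was not tested. No paired analysis was possible because each group had 1 array. Low signal limits Phf1, Ezh1, Phf19 and Ezhip most.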
